A study of Glycine max with 34 samples.

Results

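The epidermis of the cotyledon was compared with the epidermis of the embryonic axis in soybean (Glycine max) seeds at early maturation. The cotyledon side joined 2 arrays of the abaxial (outer) epidermis and 2 of the adaxial (inner) epidermis, and the axis side had 2 arrays. These 6 arrays were chosen by their labels, with no use of measured values, from 34 arrays in 17 groups. Of the 37593 soybean probe sets on the array, 28418 gave enough signal to be tested. The comparison asks which transcripts differ between the surface layers of the 2 organs.

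The epidermis is the outermost cell layer of each embryonic organ and the layer through which a maturing embryo meets the fluid released by the seed coat. Cotyledons of soybean store protein and oil for the seedling, while the axis holds the meristems and becomes the root and shoot. During maturation storage globulins, oil enzymes and late embryogenesis abundant (LEA) proteins accumulate, and the timing of these programmes can differ between organs.

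All groups came from untreated plants of cv. Asgrow A3237, grown at 22 °C in a cycle of 16 h light and 8 h dark. Seeds 6.0 to 7.0 mm long were fixed in a mix of ethanol with acetic acid and sectioned in paraffin at 8 microns, and each layer was cut out with a laser. For each array 2 ng of RNA was amplified and biotin was built into the copies before hybridization to the Affymetrix soybean chip. Both arrays of a group are biological replicates by label, but the number of seeds behind each is not given, nor whether layers share seeds. The p-values therefore measure the spread between arrays of the same group, estimated jointly over all 17 groups and not from the 6 compared arrays alone. A layer cut in bulk gives no count of cells, so fewer cells of a type and less RNA per cell cannot be told apart.

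Values are probe set signals on the linear scale of the deposited table, in which every array had the same trimmed mean. The background of an array was taken as the 95th percentile of its 23394 probe sets for other organisms, a soybean pathogen and a nematode. It was 139 to 209 on the cotyledon epidermis arrays and 234 to 237 on the axis epidermis arrays, and 46.7% to 52.1% and 44.1% to 45.8% of soybean probe sets lay above it. The hybridization controls, bacterial transcripts added to every sample, also differed between the sides. Relative to the median array of the series they stood at 0.675 to 1.41 on the cotyledon arrays and at 3.13 to 3.21 on the axis arrays. Pearson r of log2 signals over the soybean probe sets tested was 0.870 between the replicate arrays of the axis epidermis, 0.937 for the abaxial and 0.909 for the adaxial side, against 0.832 to 0.852 between cotyledon and axis arrays.

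The labels were first set against marker genes, which were chosen with earlier results of these data known. Of all genes with a name, 8.47% were called higher and 7.56% lower in the cotyledon epidermis, by the thresholds given further on. The marker counts below are to be read beside these shares. Of 4 markers of the epidermis of either organ none was higher and 1, SUT1, was lower in the averaged cotyledon epidermis. SUT1 was above the axis epidermis on the abaxial side and far below it on the adaxial side (means of 35616, 664 and 21776 in abaxial, adaxial and axis epidermis). The sums of the 4 markers were 66459 to 90950 in the cotyledon epidermis and 45593 to 73781 in the axis epidermis. The hilum of the seed coat, at 51439, lay within the axis range. Each of the 3 axis markers was lower in the cotyledon epidermis, and their summed signal was 1183 to 6504 on its arrays against 38711 to 42787 on the axis epidermis arrays. These markers, PM32, PARP3 and PGMPM19, are also among the 12 genes named below for the largest drops without overlap of arrays. Since they were chosen with earlier results of these data known, their drop is no independent test of the labels. Of 7 seed coat markers none was higher and 1 was lower in the cotyledon epidermis, with sums of 960.5 to 2443 there, 1286 to 4227 in the axis epidermis and 211803 in the hourglass layer of the seed coat. The seed coat markers MADS28 and SEP1 were above background on none of the 6 arrays. MFT, the marker of the aleurone, was higher (log2 1.82 ± 0.42), at 16414 and 9822 (abaxial), 12819 and 10121 (adaxial) and 3959 and 2894 (axis), and was brightest in the abaxial parenchyma of the cotyledon (21748). Neither of 2 markers of the hourglass layer was called. Their sums were 15596 to 20797 in the cotyledon epidermis, 30270 to 33256 in the axis epidermis and 77154 in the hourglass layer. Of 10 markers of vascular bundles none was called, and 6 in the cotyledon and 8 in the axis epidermis were above background on no array. Their sums were 1172 to 3124 in the cotyledon and 1930 to 5350 in the axis epidermis. The highest sum, 41967, was in the seed coat palisade and not in a vascular bundle. Of 6 markers of the storage parenchyma that lies under the cotyledon epidermis, 3 were higher, with sums of 17787 to 97678 in the cotyledon epidermis, 7981 to 10313 in the axis epidermis and 209865 in the abaxial parenchyma. The part of such cells in the results below was not tested.

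None of the 3 genes proposed as markers of the cotyledon epidermis, SOMT-9, AT133 and GDH1, was higher there than in the axis epidermis. SOMT-9, a flavonoid O-methyltransferase, had signals of 2256 and 1389 on the abaxial arrays, 15253 and 24928 on the adaxial arrays and 2116 and 1904 on the axis arrays. It was high on the adaxial side only, and abaxial and axis arrays overlapped. The averaged log2 difference of 1.54 ± 0.70 (SE) did not pass (adjusted p = 0.162), although it passed when only the 6 arrays were fitted (adjusted p = 0.0223) or when the level of the hybridization controls, called the control covariate below, entered the fit (3.51, adjusted p = 0.0427). AT133 had signals of 4145 and 1356, 1099 and 955 and 999 and 2419 in the same order, and all 3 groups overlapped (log2 difference 0.0047 ± 0.55, adjusted p = 0.997). Its sign turned when any of 3 arrays was left out, to -0.63 without axis epidermis replicate 1, to -0.40 without abaxial replicate 1 and to -0.05 without adaxial replicate 1.

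GDH1, a glutamate dehydrogenase that links amino acid and carbon metabolism, went the other way. Its signals were 191 and 191 on the abaxial arrays, 78.8 and 158 on the adaxial arrays and 2686 and 2128 on the axis arrays. The adaxial pair lay below background and the abaxial pair little above it, so the gene was at least 11.8-fold lower in the cotyledon epidermis (log2 difference -3.88 ± 0.39, adjusted p = 1.2e-07). In the layer beneath the order was turned, with mean signals of 1266 in the cotyledon parenchyma and 23 in the axis parenchyma. Across the 16 compartments the hilum of the seed coat had the highest GDH1 signal at 6733, and the axis epidermis came after the hourglass layer at 2407. As a description over 16 compartment means, SFERH-2 followed GDH1 most closely (Pearson r = 0.746), AMS1 followed SOMT-9 (0.910) and A1 followed AT133 (0.838).

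Between the epidermis of both organs 2853 probe sets were called different, 10.0% of those tested, by an adjusted p under 0.05 in limma and a log2 difference of at least 1. Higher in the cotyledon epidermis were 1600 (5.63%), and 1253 were lower (4.41%). The 4 cotyledon arrays lay wholly above both axis arrays for 1353 of the first and wholly below for 1134 of the second, where 11.8% and 14.5% of all probe sets, 26.3% together, had such arrays. A log2 difference of 4 or more was reached by 89 higher and 66 lower probe sets. The 23394 probe sets for other organisms were fitted separately by the same model, unfiltered and with their own adjustment of p-values. Of these 12 were called higher and 202 lower, 0.915% of them. Their median log2 difference was -0.25 against -0.02 for the soybean probe sets. With the control covariate the fit called 1246 soybean probe sets, of which 817 were among the 2853. With the 6 arrays fitted alone, 1186 were called.

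**Figure D1:**
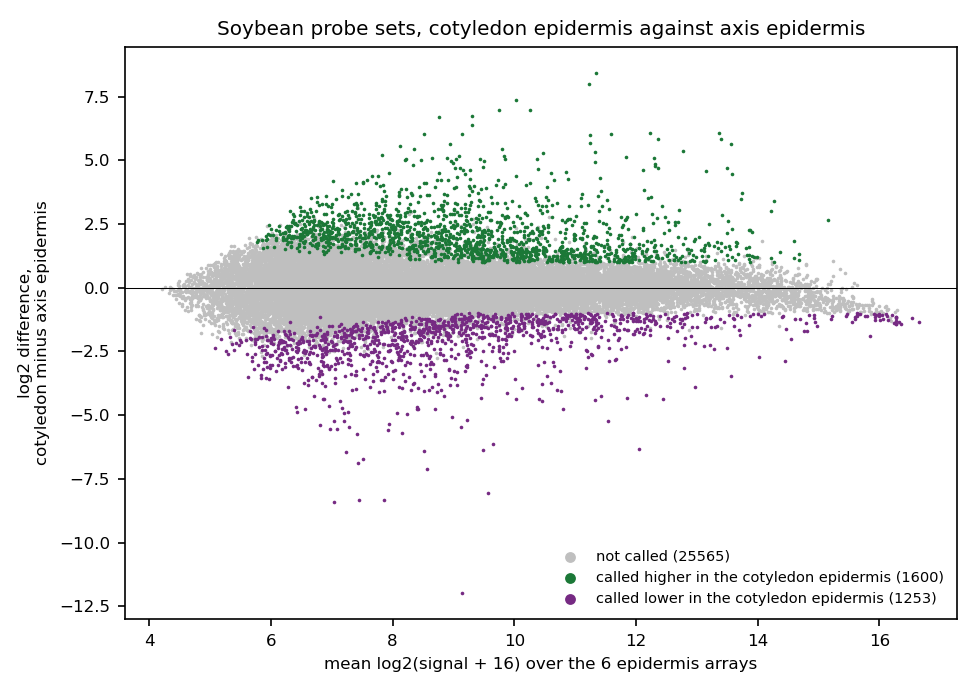
Log2 difference between cotyledon and axis epidermis (vertical axis) against the mean log2 signal over the 6 epidermis arrays (horizontal axis), 1 point per soybean probe set tested. The 1600 probe sets called higher in the cotyledon epidermis are green, the 1253 called lower are purple, and calls reach down to dim probe sets near the background.

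A name that says more than a locus number was at hand for 886 genes, each read by its brightest probe set. Of these 75 were higher (8.47%) and 67 lower (7.56%) in the cotyledon epidermis, 16.0% in all, and these shares are the background for the groups of genes that follow. Where the arrays of the dimmer side above background did not outnumber those at or below it, the fold is a bound and is written "at least". Log2 differences are of signal plus 16, which makes them smaller for dim genes, and are given with their SE. Signals of different probe sets are not compared with each other.

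Storage proteins were mostly brighter in the cotyledon epidermis, with 4 of 8 members higher and none lower and a median log2 difference of 2.07 against 0.01 over all named genes. These proteins are the nitrogen reserve of the seed, laid down as glycinins (GY genes) and beta-conglycinins (CG genes). GY1, a glycinin subunit, gave signals of 9114 and 7139.6 on the abaxial arrays, 50924 and 51414 on the adaxial arrays and 1154 and 91.3 on the axis arrays. All cotyledon arrays exceeded both axis arrays, and the adaxial pair was the brighter. The difference was at least 37.6-fold (log2 5.84 ± 0.81, adjusted p = 1.6e-05), the largest among named genes higher in the cotyledon epidermis, and its call held under every alternative tried.

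The other 3 storage proteins that passed were smaller in their difference. GY5 had signals of 899 and 1368 (abaxial), 782 and 511 (adaxial) and 187 and 67.3 (axis), with no overlap and a log2 difference of 2.71 ± 0.62 (adjusted p = 0.00368). Without axis epidermis replicate 2 its difference was 2.07 (adjusted p = 0.0877). The conglycinin gene CG-1 had 2717 and 1171 (abaxial), 2964 and 2654 (adaxial) and 516 and 426 (axis), a difference of 4.64-fold (log2 2.22 ± 0.47, adjusted p = 0.00211), and the call was lost with the control covariate (1.3, adjusted p = 0.344). GY2 was carried by the adaxial side, where its signals were 11517 and 11949.5, while abaxial (996 and 1407) and axis (1449 and 558) arrays overlapped. Its averaged difference was 2.03 ± 0.49 (adjusted p = 0.00603) and was 1.36 without axis epidermis replicate 2 (adjusted p = 0.159). Among members that did not pass, GY3 had a log2 difference of 1.37, BG7S-1 of 2.1, GY7 of -0.42 and GM2S-1, a 2S albumin, of -0.70. The storage parenchyma markers given above overlap this list and moved with it.

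Seed proteases were measured in 5 genes, of which P34 and VPE were higher and none was lower. P34, a papain-like protein of storage vacuoles and a known soybean allergen, had signals of 19362 and 22919 on the abaxial arrays, 31503 and 34851 on the adaxial arrays and 562 and 2054 on the axis arrays. The lowest cotyledon array was far above the highest axis array, a 24.2-fold difference (log2 4.59 ± 0.71, adjusted p = 6.16e-05) that held under every alternative. Axis tissue was not poor in P34 throughout, since the axis parenchyma had a mean signal of 26611 and the cotyledon parenchyma 45827. VPE, a vacuolar processing enzyme that matures storage proteins, differed less, with 14797 and 17407, 13636 and 8157 and 6614 and 5606 in abaxial, adaxial and axis epidermis (log2 1.09 ± 0.28, adjusted p = 0.00989). It missed the threshold with array weights (adjusted p = 0.0964), with the control covariate (0.242) and without axis epidermis replicate 2 (0.0878), and its log2 difference was 0.91 without adaxial replicate 1.

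Of 9 protease inhibitors, defence proteins stored in the seed, CYSTATIN alone passed. This inhibitor of cysteine proteases had signals of 6547 and 7649.8 (abaxial), 5617 and 5449.9 (adaxial) and 2615 and 2840.3 (axis) and a 2.29-fold difference (log2 1.19 ± 0.20, adjusted p = 0.000135). With the control covariate its log2 difference was 0.77 (adjusted p = 0.113). The Kunitz and Bowman-Birk inhibitors ranged from -1.22 for BBI-2 to 1.84 for D-II on the log2 scale without passing.

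Seed maturation and LEA proteins, which protect tissue as it dries, split by gene, with 3 of 28 higher and 6 lower. PGMPM19 had the largest drop. Its signals were 100.4 and 63.8 (abaxial), 707 and 143 (adaxial) and 7451 and 5719 (axis), at least 24.6-fold lower in the cotyledon epidermis (log2 -5.18 ± 0.54, adjusted p = 2.52e-07). Of its 4 cotyledon arrays 3 were under background and 1 adaxial array was above it. PM32 had signals of 776 and 497, 620.4 and 1483 and 5453 and 7939 in the same order, 8.36-fold lower in the cotyledon epidermis (log2 -3.06 ± 0.44, adjusted p = 2.62e-05). Both calls held under every alternative, and both genes were also lower in the cotyledon than in the axis parenchyma (log2 -5.53 and -5.59).

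PM3 and PM39 were lower as well. PM3 had signals of 739 and 1038 (abaxial), 1216 and 3072 (adaxial) and 6425 and 7839 (axis), with a log2 difference of -2.43 ± 0.45 (adjusted p = 0.000496), and of -1.61 with the control covariate (adjusted p = 0.197). PM39, at 100.5 and 7.5, 37.8 and 134 and 303 and 439, had no cotyledon array above background and an adjusted p of 0.0243. It missed the threshold without either axis array (adjusted p = 0.0763 and 0.141), without abaxial replicate 2 (0.11) and without adaxial replicate 1 (0.0855). The remaining lower members, LEA5 (log2 -1.88 ± 0.47) and PM16 (-1.75 ± 0.52), are named after their values were seen. LEA5 was low on the adaxial arrays only, at 297 and 155, against 3354 and 2347 on the abaxial and 3384 and 2597 on the axis arrays.

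The 3 maturation proteins on the other side were PGMPM10, PM1 and PM31. PGMPM10 had signals of 3271 and 5264 on the abaxial arrays, 5348 and 7854 on the adaxial arrays and 1462 and 687 on the axis arrays, a 5.1-fold difference with no overlap (log2 2.35 ± 0.50, adjusted p = 0.00229). PM1 had 2537 and 1902, 3184 and 4185 and 325 and 1125 (log2 2.19 ± 0.40, adjusted p = 0.000493), and PM31 had 678 and 798, 991 and 1889 and 319 and 337 (log2 1.57 ± 0.37, adjusted p = 0.00523). PGMPM10 missed the threshold without axis epidermis replicate 2 (adjusted p = 0.0656) and PM1 without axis epidermis replicate 1 (0.0662). PM31 passed without any 1 array, and missed when fitted on the 6 arrays alone (0.0665) and with array weights (0.0701). With the control covariate the adjusted p was 0.595 for PGMPM10 (log2 0.79), 0.194 for PM1 (log2 1.45) and 0.102 for PM31.

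Of 16 genes of fatty acid and oil synthesis 5 were higher in the cotyledon epidermis and none lower, with a median log2 difference of 0.79. FAD2-1A is the seed desaturase that turns oleic into linoleic acid. Its signals were 1954 and 1549.6 (abaxial), 15876 and 11844 (adaxial) and 679.8 and 925 (axis), 6.07-fold higher in the cotyledon epidermis (log2 2.60 ± 0.52, adjusted p = 0.00123). SACPD-C, the stearoyl-ACP desaturase that makes oleic acid, had 19003 and 12796, 38622 and 45426 and 4747 and 6507 and a 4.59-fold difference (log2 2.20 ± 0.29, adjusted p = 6.52e-06). For both genes every cotyledon array exceeded both axis arrays, the adaxial pair was the brightest, and the call held under every alternative.

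Of the other oil genes, ACCB-2, a biotin carrier subunit of acetyl-CoA carboxylase, had signals of 6043 and 5795 (abaxial), 10901 and 9616 (adaxial) and 2549 and 4167 (axis), a log2 difference of 1.25 ± 0.25 (adjusted p = 0.00099). Without axis epidermis replicate 1 it was 0.90 (adjusted p = 0.0635), and with the control covariate 1.00 (adjusted p = 0.135). DGAT1A, an acyltransferase of the last step of oil synthesis, had 218 and 241, 356 and 417 and 35.2 and 161 (log2 1.72 ± 0.49, adjusted p = 0.0196) but log2 0.82 without axis epidermis replicate 1 (adjusted p = 0.423). FAD3B, a desaturase that makes linolenic acid and is named after its value was seen, had a difference of 1.08 ± 0.33 (adjusted p = 0.0323). ACCA-1 had a log2 difference of 2.73 without passing (adjusted p = 0.0662), and the ubiquitously used desaturases FAD2-2 and FAD2-3 had -0.16 and -0.27.

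Aquaporins, the water channels of plant membranes, had 5 of 18 members higher and 1 lower. PIP2-8, a plasma membrane aquaporin, had signals of 641 and 1046 (abaxial), 19409.8 and 17503 (adaxial) and 26.1 and 572 (axis). The adaxial pair stood far above the rest, and the lowest abaxial array exceeded the higher axis array only narrowly. The difference was at least 10.2-fold (log2 4.64 ± 0.65, adjusted p = 1.67e-05) but log2 2.74 without axis epidermis replicate 1 (adjusted p = 0.00464). PIP2-6 had 10901 and 8412, 41779 and 50419.9 and 3121 and 5633, a 4.98-fold difference (log2 2.32 ± 0.27, adjusted p = 1.74e-06) that held under every alternative.

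Calls of further water channels were less stable. PIP2-2 had signals of 1161 and 1245, 1210.4 and 2249 and 791 and 48.0, in which the axis arrays differed most from each other on the log2 scale. Its log2 difference was 2.65 ± 0.60 (adjusted p = 0.00375), and 0.82 without axis epidermis replicate 2. PIP2-9 had a log2 difference of 1.94 ± 0.50 (adjusted p = 0.0105), and of 0.92 without axis epidermis replicate 1 (adjusted p = 0.366). PIP1-10, named after its value was seen, had 12042 and 13713 (abaxial), 20222 and 24925 (adaxial) and 5881 and 6025 (axis), with no overlap (log2 1.51 ± 0.21, adjusted p = 1.95e-05). SIP1-6, of the small basic class of internal membranes, was the lower member at 508 and 81.5, 324 and 716 and 1524 and 2218 (log2 -2.47 ± 0.54, adjusted p = 0.00294). With the control covariate its difference was -1.08 (adjusted p = 0.504).

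Sugar transport and sucrose metabolism had 2 of 13 genes higher and 3 lower. SUT1, a proton-coupled sucrose transporter, had signals of 30441 and 40789.9 on the abaxial arrays, 715 and 613 on the adaxial arrays and 22008 and 21544 on the axis arrays. The abaxial arrays were above the axis arrays and the adaxial arrays far below, so the averaged difference of -2.16 ± 0.35 (adjusted p = 0.000117) stands for neither side. Over the 16 compartments the abaxial epidermis had the highest mean SUT1 signal at 35616 and the axis epidermis the next at 21776, followed by the root meristem at 1004. SS, a sucrose synthase that breaks down incoming sucrose, had 16253 and 15422, 35126 and 31945 and 58027 and 58819, a 2.54-fold lower signal in the cotyledon epidermis (log2 -1.34 ± 0.17, adjusted p = 3.27e-06). After quantile normalization its difference was -0.85, under the size asked for.

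The SWEET sugar exporters went both ways. SWEET42 had signals of 1176 and 782 (abaxial), 810.3 and 286 (adaxial) and 283 and 136 (axis), with a log2 difference of 1.71 ± 0.39 (adjusted p = 0.00391, and 0.105 without axis epidermis replicate 2). SWEET31 had 288 and 567, 547 and 383 and 20.3 and 275 (log2 2.12 ± 0.66, adjusted p = 0.0339) but log2 0.62 without axis epidermis replicate 1 (adjusted p = 0.669). It also had an adjusted p of 0.101 without abaxial replicate 2 and of 0.0799 without adaxial replicate 1. SWEET34 was lower by -1.3 ± 0.42 (adjusted p = 0.0438) and missed the threshold without either axis array (adjusted p = 0.152 and 0.145), without abaxial replicate 1 (0.118) and without adaxial replicate 2 (0.105).

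In nitrogen transport and assimilation GDH1 and NRT1-3 were lower and none of the 12 genes was higher. NRT1-3, of the nitrate and peptide transporter family, had signals of 610.5 and 136 (abaxial), 185 and 154 (adaxial) and 526 and 1739.6 (axis). Its groups overlapped in 1 abaxial array, the log2 difference was -2.03 ± 0.46 (adjusted p = 0.00388), and without axis epidermis replicate 2 it was -1.18 (adjusted p = 0.174). The glutamine synthetases GS1GAMMA2, GS1-GAMMA, GS1alpha and GS-2 had log2 differences of -1.09, -0.62, 0.50 and 0.71 without passing.

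**Figure D2:**
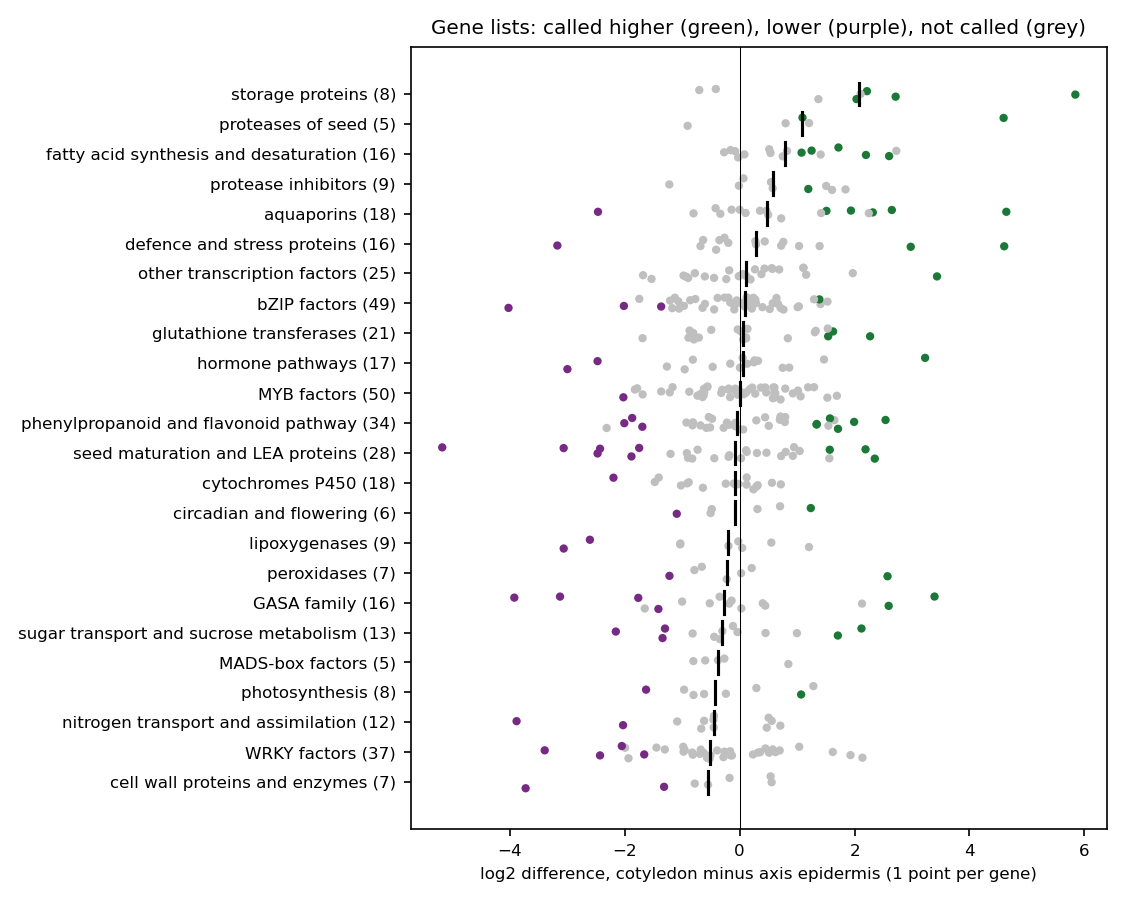
Log2 difference between cotyledon and axis epidermis (horizontal axis), 1 point per gene, for 24 groups of named genes with the number tested in brackets. Green points were called higher, purple points lower, black bars are medians, and storage proteins have the highest median at 2.07.

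The phenylpropanoid and flavonoid pathway, which makes lignin precursors, flavonols, isoflavonoids and pigments, had 6 of 34 genes higher and 3 lower. FLS1, a flavonol synthase, had signals of 1824 and 1764 (abaxial), 9626 and 8631 (adaxial) and 786 and 594 (axis). All cotyledon arrays exceeded the axis arrays, a 5.81-fold difference (log2 2.54 ± 0.62, adjusted p = 0.00703, and 0.0635 without axis epidermis replicate 2), and the adaxial epidermis had the highest mean of the 16 compartments at 9129, followed by the abaxial epidermis at 1794. CHI2-A, a chalcone isomerase, was raised on the adaxial side only, with 1489.5 and 1849.5 (abaxial), 20617 and 23883 (adaxial) and 1540.3 and 2692 (axis). Its averaged log2 difference was 1.57 ± 0.39 (adjusted p = 0.0075) and was 1.17 without axis epidermis replicate 1 (adjusted p = 0.155).

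The isomerases CHI4A and CHI1A were also higher (log2 1.34 ± 0.23 and 1.34 ± 0.37, named after their values were seen), as were the coumarate ligases 4CL and 4CL1 at the entry to the pathway. 4CL had signals of 2109 and 2208, 2142 and 775 and 451 and 551 and a log2 difference of 1.71 ± 0.42 (adjusted p = 0.00712), against 1.04 with the control covariate (adjusted p = 0.42) and an adjusted p of 0.0766 without axis epidermis replicate 1. 4CL1 was dim, above background on 1 adaxial array only (264 and 74.8), and its difference of 1.99 ± 0.50 had an adjusted p of 0.0571 without axis epidermis replicate 1.

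Lower in the cotyledon epidermis were CHS8, IF7GT and ANS2. CHS8, a chalcone synthase that commits carbon to flavonoids, had signals of 199 and 296, 113 and 159.7 and 679 and 572 (log2 -1.69 ± 0.41, adjusted p = 0.00605). Without axis epidermis replicate 1 its adjusted p was 0.0663, and its difference was -0.60 with the control covariate (adjusted p = 0.635). IF7GT, a glucosyltransferase of isoflavones, rested on axis epidermis replicate 2, with axis signals of 551 and 3876, cotyledon signals of 782 and 866 (abaxial) and 85.3 and 246 (adaxial), and a log2 difference of -2.01 ± 0.55 (adjusted p = 0.0147) that was -0.62 without that array (adjusted p = 0.535). It also missed without adaxial replicate 1 (adjusted p = 0.063). ANS2, an anthocyanidin synthase, likewise had axis signals of 311 and 1706 and a difference of -1.87 ± 0.58 (adjusted p = 0.0346), which was -0.67 without axis epidermis replicate 2 (adjusted p = 0.573). Its adjusted p was 0.172 without abaxial replicate 2 and 0.0821 without adaxial replicate 1.

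Soyasaponin synthesis was measured by 3 genes, and SGT2, a sugar transferase of these triterpene glycosides, was higher. Its signals were 22367 and 21221 (abaxial), 26754 and 31679 (adaxial) and 6053 and 4612 (axis), with no overlap and a 4.75-fold difference (log2 2.25 ± 0.55, adjusted p = 0.00633). The adjusted p was 0.0635 without axis epidermis replicate 2, 0.143 with array weights and 0.0791 with the control covariate. SGT3 had a log2 difference of 1.01 and CYP93E1, a P450 of the same pathway, of -1.02 without passing.

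GPPS, a geranyl diphosphate synthase that supplies monoterpene precursors, belongs to none of the lists and was among the strongest differences. It had signals of 9165 and 6100.5 on the abaxial arrays, 2606 and 2257 on the adaxial arrays and 63.6 and 194 on the axis arrays. Cotyledon and axis arrays lay far apart (at least 17-fold, log2 5.05 ± 0.66, adjusted p = 6.52e-06), the call held under every alternative, and the abaxial epidermis had the highest mean of the 16 compartments at 7633. PSK3, a precursor of the growth peptide phytosulfokine, had 1322 and 483, 4571 and 1770.5 and 10.7 and 60.9, at least 6.08-fold higher in the cotyledon epidermis (log2 5.08 ± 0.63, adjusted p = 3.47e-06), also under every alternative. Its highest signals were elsewhere, with a mean of 32534 in the seed coat aleurone.

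OAS-TL7, an O-acetylserine (thiol)lyase that forms cysteine, had signals of 649 and 954 (abaxial), 1327 and 3326 (adaxial) and 37.6 and 343 (axis). The difference was at least 4.33-fold (log2 3.23 ± 0.47, adjusted p = 2.75e-05) but log2 1.86 without axis epidermis replicate 1 (adjusted p = 0.00649). SHOOT2 had 151 and 178, 531 and 635 and 18.7 and 5.5 (log2 3.58 ± 0.43, adjusted p = 1.9e-06), with axis arrays far under background. CDPK-BETA, a calcium-dependent protein kinase, had 148 and 171, 430.4 and 202 and 10.3 and 7.6 (log2 3.23 ± 0.72, adjusted p = 0.00327). Since most of these signals lie near background, no fold is given for CDPK-BETA, and its adjusted p was 0.163 with the control covariate.

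**Figure D3:**
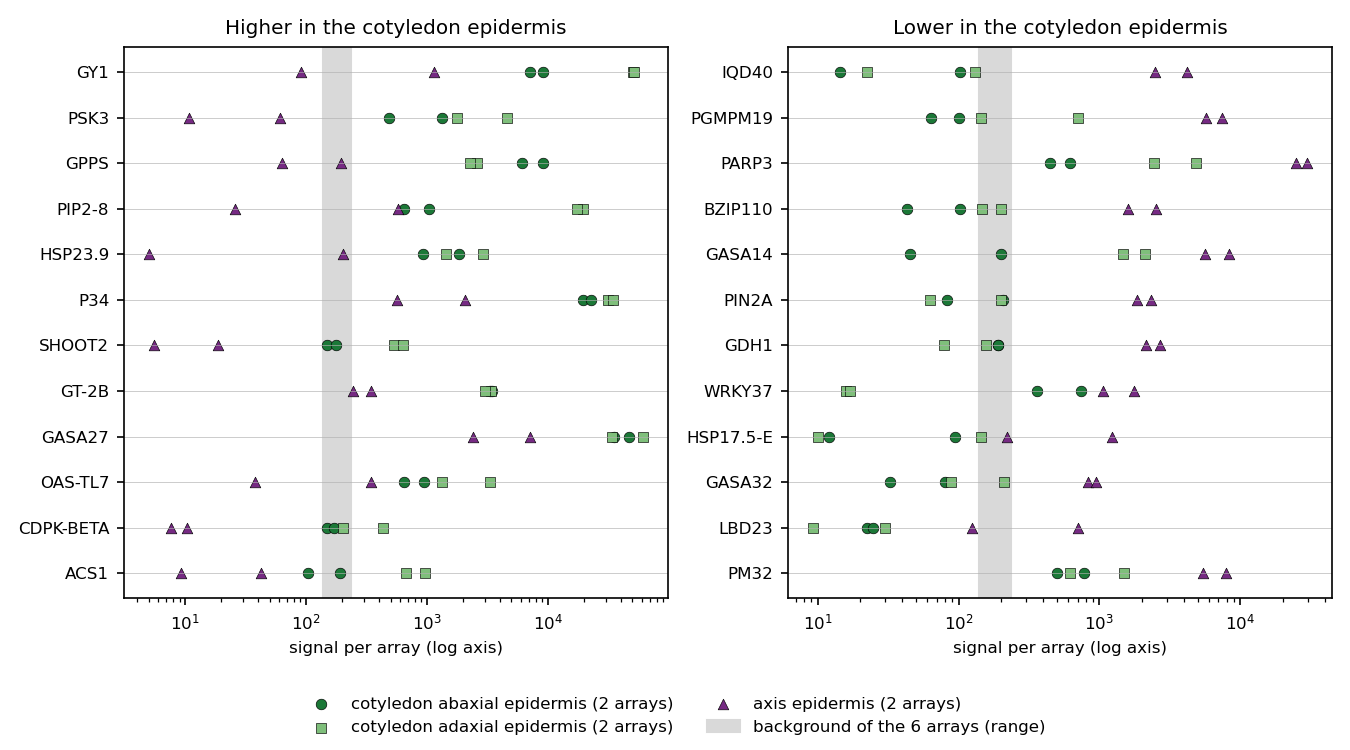
Signal per array (horizontal log axes) of the 12 named genes with the largest difference in each direction whose cotyledon arrays all lie on 1 side of both axis arrays. Circles are abaxial, squares adaxial and triangles axis epidermis arrays, and the grey band spans the background of the 6 arrays, in which many signals of the dimmer side lie.

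Glutathione transferases, which detoxify by conjugation, had 3 of 21 members higher and none lower. GSTU41 had signals of 38803 and 49151 (abaxial), 17571 and 11559.7 (adaxial) and 6324 and 4207 (axis), a 4.83-fold difference (log2 2.27 ± 0.46, adjusted p = 0.00129). GSTF5 had 830.3 and 818, 1181 and 943 and 338 and 251 (log2 1.63 ± 0.32, adjusted p = 0.00102), though 1 of its 3 probe sets was called the opposite way. GSTU13 had 3560.2 and 3366, 2411 and 3922 and 1261 and 979 (log2 1.54 ± 0.39, adjusted p = 0.00831, and 0.0822 without axis epidermis replicate 2). For all 3 the cotyledon arrays lay wholly above the axis arrays.

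Peroxidases, haem enzymes of the cell wall and vacuole, had 1 of 7 members higher and 1 lower. PRX3 had signals of 10934 and 11426, 13467 and 10445 and 2102 and 1754, a 5.95-fold difference (log2 2.57 ± 0.34, adjusted p = 6.44e-06). PRX2 had 13255 and 8867, 7760.2 and 8562 and 21516 and 22394, 2.33-fold lower in the cotyledon epidermis (log2 -1.22 ± 0.19, adjusted p = 7.14e-05, and -0.84 with adjusted p = 0.0703 with the control covariate). Among 7 cell wall genes PRP1, a proline-rich wall protein, and EXP2, an expansin that loosens walls, were lower. PRP1 overlapped between groups, at 6395 and 220.4, 480.4 and 230.0 and 2452 and 30477, and its difference of -3.73 ± 1.16 (adjusted p = 0.0342) was -1.91 without axis epidermis replicate 2 (adjusted p = 0.431). It also missed without abaxial replicate 2 (adjusted p = 0.164) and adaxial replicate 2 (0.0784). EXP2 had a difference of -1.32 ± 0.43 (adjusted p = 0.0451), and of -0.95 without axis epidermis replicate 1 (adjusted p = 0.332), with 0.196 without abaxial replicate 2 and 0.118 without adaxial replicate 2.

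Lipoxygenases, which oxidise polyunsaturated fatty acids, had 2 of 9 members lower and none higher. LOX10 had signals of 802 and 247 (abaxial), 69.0 and 381 (adaxial) and 2542 and 2311 (axis), 8.36-fold lower in the cotyledon epidermis (log2 -3.06 ± 0.77, adjusted p = 0.00871). LOX7 had 231 and 194, 95.5 and 69.1 and 687 and 1155 (log2 -2.61 ± 0.66, adjusted p = 0.00838). Neither call held throughout. LOX10 had an adjusted p of 0.0687 without axis epidermis replicate 1 and a log2 difference of -0.74 with the control covariate, and LOX7 an adjusted p of 0.0928 without axis epidermis replicate 2. The seed lipoxygenases LOX1.1, LOX2 and LOX3 had differences of 1.21, -0.02 and -1.04 without passing.

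Of 17 genes of hormone synthesis and response 1 was higher and 2 were lower. GA20OX3, a gibberellin 20-oxidase that makes precursors of active gibberellins, had signals of 37.7 and 51.1 (abaxial), 120.3 and 55.9 (adaxial) and 611 and 589 (axis). All cotyledon arrays were under background and both axis arrays above it, a level at least 3.28-fold lower in the cotyledon epidermis (log2 -3.0 ± 0.44, adjusted p = 3.11e-05), and the call held under every alternative. AUX28, a repressor of auxin responses, was above background on axis epidermis replicate 2 only, at 31.6 and 71.2, 2.5 and 10.6 and 151 and 248 (log2 -2.47 ± 0.74, adjusted p = 0.0265). Its adjusted p was 0.0731 and 0.165 without axis epidermis replicates 1 and 2, 0.0797 without abaxial replicate 1 and 0.0646 without adaxial replicate 1.

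ACS1, read from its symbol as the ethylene precursor enzyme ACC synthase, was the higher hormone gene, with 103 and 192, 671 and 960.3 and 9.2 and 42.3 (log2 3.23 ± 0.89, adjusted p = 0.0166). It missed without axis epidermis replicate 1 (adjusted p = 0.178). PIN2A, an auxin efflux carrier, had signals of 82.5 and 206 on the abaxial arrays, 200.3 and 62.6 on the adaxial arrays and 2328 and 1857 on the axis arrays. It was at least 10.4-fold lower in the cotyledon epidermis (log2 -3.92 ± 0.57, adjusted p = 3.2e-05) under every alternative, and the axis parenchyma (2159), the axis epidermis (2092) and the root meristem (610.5) had the highest means of the 16 compartments. CYP90A15, a P450 whose family acts in brassinosteroid synthesis, was the only one of 18 P450 genes called, at 77.7 and 185, 108 and 143 and 465 and 824 (log2 -2.20 ± 0.46, adjusted p = 0.00202). Fitted on the 6 arrays alone, it had an adjusted p of 0.0642, and with the control covariate of 0.0444.

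The GASA family, small cysteine-rich peptides often regulated by gibberellin, had 2 of 16 members higher and 4 lower. GASA27 had signals of 35541 and 46936 (abaxial), 34075 and 61570.1 (adaxial) and 2382 and 7069.9 (axis), a 10.5-fold difference (log2 3.39 ± 0.33, adjusted p = 8.92e-08). Its highest means over the 16 compartments were in the adaxial (47823) and abaxial (41238) epidermis. GASA22 was raised on the abaxial side, with 31005 and 40493, 3812 and 4312 and 2428 and 1604 (log2 2.59 ± 0.42, adjusted p = 0.000118). Both calls held under every alternative.

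GASA14 was among the strongest lower genes, with signals of 200.1 and 45.1, 1472 and 2104 and 8273 and 5645, 15.2-fold lower in the cotyledon epidermis (log2 -3.92 ± 0.39, adjusted p = 1.34e-07). GASA32 had 79.6 and 32.8, 211 and 88.4 and 824 and 939.7, at least 4.5-fold lower (log2 -3.13 ± 0.42, adjusted p = 1.07e-05). These 2 calls held under every alternative, and no cotyledon array reached an axis array. GASA33 (log2 -1.76 ± 0.38, adjusted p = 0.00238) had an average that hid opposite sides, as given further on. GASA3 had a difference of -1.41 ± 0.35 (adjusted p = 0.00707, and 0.133 without axis epidermis replicate 1).

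Transcription factors gave few calls. Of 37 WRKY genes, whose products act in stress and developmental responses, 4 were lower and none higher, and their median log2 difference was -0.51. WRKY37 had signals of 359.8 and 737 (abaxial), 15.8 and 17.1 (adaxial) and 1054 and 1764 (axis), at least 4.22-fold lower (log2 -3.39 ± 0.55, adjusted p = 0.000111, and 0.0747 with the control covariate). WRKY15 (log2 -2.43 ± 0.51), WRKY16 (-2.05 ± 0.67) and WRKY50 (-1.66 ± 0.35) had adjusted p-values of 0.00179, 0.0451 and 0.00222. WRKY16 and WRKY50 missed without axis epidermis replicate 1 (adjusted p = 0.306 and 0.0517). WRKY15 passed without any 1 array, and missed when fitted on the 6 arrays alone (0.0736) and with the control covariate (0.285, log2 -1.54). WRKY16 also missed without axis epidermis replicate 2 (0.0588), abaxial replicate 1 (0.0574), abaxial replicate 2 (0.112) and adaxial replicate 1 (0.114).

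Of 49 bZIP genes 1 was higher and 3 were lower. BZIP110 had signals of 103 and 43.1 (abaxial), 147 and 199 (adaxial) and 2536 and 1608 (axis). Every cotyledon array was below background, and the gene was at least 10.8-fold lower in the cotyledon epidermis (log2 -4.02 ± 0.46, adjusted p = 8.98e-07) under every alternative. The axis parenchyma had the highest mean of the 16 compartments at 4363. BZIP111 (4.0 and 39.9, 53.6 and 115 and 192 and 234) and BZIP130 (609 and 852, 460.1 and 1837 and 1839.9 and 2462) were lower with log2 differences of -2.02 ± 0.59 and -1.37 ± 0.36. BZIP111 had an adjusted p of 0.0249, and of 0.0904 and 0.124 without axis epidermis replicates 1 and 2, 0.101 without abaxial replicate 1 and 0.077 without adaxial replicate 1. BZIP130 had an adjusted p of 0.0129, and of 0.12 without axis epidermis replicate 2 and 0.0641 (log2 -0.88) without adaxial replicate 1.

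Among other regulators GT-2B, a trihelix factor, was higher. Its signals were 3458 and 3343 on the abaxial arrays, 3411 and 3038 on the adaxial arrays and 246 and 345 on the axis arrays, a 10.8-fold difference (log2 3.43 ± 0.35, adjusted p = 1.59e-07) that held under every alternative. It was the only 1 of 25 genes in a list of NAC, ERF, DREB and other factors to be called. LBD23, of the lateral organ boundaries family, had 23 and 24.7, 9.2 and 29.9 and 124 and 701 (log2 -3.11 ± 0.59, adjusted p = 0.000668), with 1 of 2 axis arrays above background and a difference of -1.93 without that array (adjusted p = 0.0635).

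IQD40, of a family of calmodulin-binding proteins, had the largest difference of any named gene toward the axis. Its signals were 103 and 14.3 (abaxial), 22.4 and 130.1 (adaxial) and 2476 and 4176 (axis), at least 17.2-fold lower in the cotyledon epidermis (log2 -5.59 ± 0.46, adjusted p = 6.08e-09), under every alternative. The highest compartment means of IQD40 were in the vascular bundles of axis (5048) and cotyledon (3938). What sets its level was not tested. PARP3, a poly(ADP-ribose) polymerase, had 444 and 622, 2427 and 4877 and 29884 and 25053, 20.0-fold lower (log2 -4.32 ± 0.59, adjusted p = 1.29e-05). Its 4 highest means were all in the axis, from the plumule (60844) to the epidermis (27469).

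Of 50 MYB genes MYB48 alone was called, lower by -2.02 ± 0.63 (adjusted p = 0.0338), with all 6 arrays under background and both axis arrays needed for the call (adjusted p = 0.0514 and 0.244 without axis epidermis replicates 1 and 2, 0.0719 and 0.0578 without abaxial replicates 1 and 2, and 0.0721 without adaxial replicate 1). None of the 5 MADS-box genes was called by limma, and none had an unadjusted p under 0.05. LHY, a clock gene, was higher (log2 1.24 ± 0.31, adjusted p = 0.00818, and 0.166 without axis epidermis replicate 2) and PHYA, the far-red light receptor, was lower (log2 -1.09 ± 0.28, adjusted p = 0.0107). PHYA had an adjusted p of 0.0581 and 0.0637 without axis epidermis replicates 1 and 2, and differences of -0.97 without abaxial replicate 1 and -0.95 without adaxial replicate 2. Of 8 photosynthesis genes RCAALPHA, a rubisco activase, was higher (log2 1.07 ± 0.23, adjusted p = 0.00221) and ELIP, an early light-induced protein, lower (log2 -1.63 ± 0.38, adjusted p = 0.00426). ELIP lost its call in 3 of 17 alternatives, over which its log2 difference ranged from -1.81 to -1.45. RCAALPHA had a difference of 0.61 without axis epidermis replicate 1 (adjusted p = 0.163) and of 0.90 without abaxial replicate 1.

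Of 16 defence and stress proteins 2 were higher and 1 was lower. HSP23.9, a small heat shock protein, had signals of 1827 and 928 (abaxial), 1442 and 2905 (adaxial) and 5.0 and 203 (axis), at least 6.56-fold higher in the cotyledon epidermis (log2 4.6 ± 0.98, adjusted p = 0.00221). Both axis arrays lay below background, and on the log2 scale they differed from each other by more than the cotyledon arrays did. Without axis epidermis replicate 1 the log2 difference of HSP23.9 was 2.91. Its highest mean was 37879 in the seed coat aleurone. LRK1, a receptor-like kinase, had 642 and 112, 1024 and 1451 and 14.5 and 173 (log2 2.98 ± 0.60, adjusted p = 0.00134) but log2 1.66 without axis epidermis replicate 1 (adjusted p = 0.134). HSP17.5-E, another small heat shock protein, had 12 and 94.2, 143 and 10.1 and 219.5 and 1222 (log2 -3.17 ± 0.88, adjusted p = 0.017) but log2 -1.98 without axis epidermis replicate 2 (adjusted p = 0.272). Its adjusted p was 0.0731 without abaxial replicate 1 and 0.0723 without adaxial replicate 2.

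The average over the cotyledon epidermis joined 2 layers that were not alike. Between abaxial and adaxial epidermis 1002 probe sets differed (3.53% of those tested), 536 higher on the abaxial (1.89%) and 466 on the adaxial side (1.64%). Set against the axis epidermis separately, the abaxial side had 2537 calls (8.93%), 1434 higher (5.05%) and 1103 lower (3.88%). The adaxial side had 2486 (8.75%), 1326 higher (4.67%) and 1160 lower (4.08%), in a comparison that shares the axis arrays. Of the 1600 probe sets called higher in the averaged cotyledon epidermis 179 also differed between its sides, and of the 1253 called lower 164 did.

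Among the named genes the widest gap between the sides was in SUT1 (log2 5.70 ± 0.40, adjusted p = 1.51e-09), whose abaxial arrays were at 30441 and 40789.9 and adaxial arrays at 715 and 613. GASA33 was the reverse, with abaxial arrays at 187 and 92.5 and adaxial arrays at 4571 and 6208 around axis signals of 2632 and 3443 (log2 -5.17 ± 0.44, adjusted p = 1.64e-08). Its difference from the axis was -4.35 ± 0.44 on the abaxial side (adjusted p = 1.75e-07) and 0.82 ± 0.44 on the adaxial side (adjusted p = 0.275). With the control covariate the averaged difference of GASA33 was -0.91 (adjusted p = 0.409). Brighter on the adaxial side were also PIP2-8 (log2 -4.46 ± 0.75), GASA14 (-3.95 ± 0.46), CHI2-A (-3.73 ± 0.45), SOMT-9 (-3.45 ± 0.80), GY2 (-3.29 ± 0.57) and FAD2-1A (-2.97 ± 0.60). Between the sides SOMT-9 had an adjusted p of 0.133 without abaxial replicate 2 and 0.123 without adaxial replicate 2, and FAD2-1A of 0.0512 without abaxial replicate 2.

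WRKY37 and GASA22 were brighter on the abaxial side, by log2 4.04 ± 0.63 and 3.12 ± 0.49. BZIP46 was the bZIP gene called higher in the averaged epidermis (log2 1.39 ± 0.44, adjusted p = 0.0385), yet only its adaxial arrays (1033 and 1789) stood above the abaxial (99.8 and 195) and axis arrays (245 and 104). Its averaged call was lost without axis epidermis replicate 2 (adjusted p = 0.366), without abaxial replicate 2 (0.124) and without adaxial replicate 2 (0.109). The sides did not differ by the test in GT-2B (log2 0.08 ± 0.40), GASA27 (-0.17 ± 0.38) or PRX3 (-0.09 ± 0.39).

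**Figure D4:**
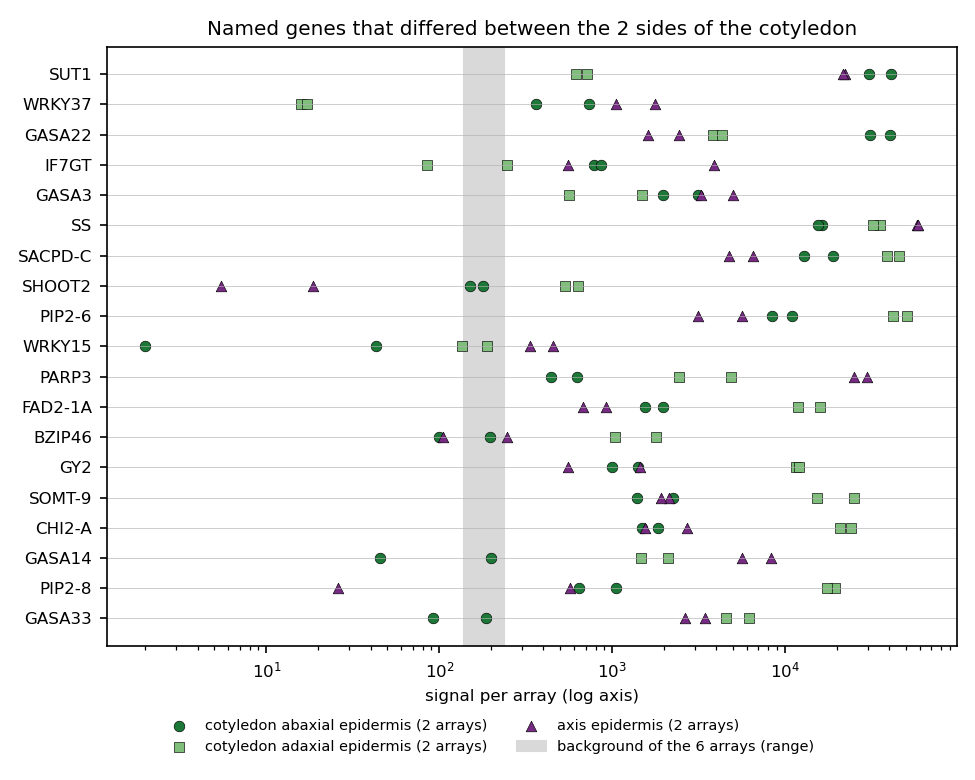
Signal per array (horizontal log axis) of the 19 genes named in the text whose abaxial and adaxial epidermis differed. Circles are abaxial, squares adaxial and triangles axis epidermis arrays, the grey band spans the background of the 6 arrays, and the axis arrays lie with the abaxial arrays for some genes, such as SUT1, and with the adaxial arrays for others, such as GASA33.

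Part of the organ difference was shared with the parenchyma beneath, which was measured on 6 other arrays. In that layer the cotyledon had 971 probe sets called higher (3.42%) and 1147 called lower (4.04%). Called higher in both layers were 321 probe sets, 20.1% of those of the epidermis and 33.1% of those of the parenchyma, and called lower in both were 367, or 29.3% and 32.0%. Called higher in the epidermis and lower in the parenchyma were 51, and the opposite held for 16. The hybridization controls stood at 0.603 to 0.824 in the cotyledon and 1.39 to 1.40 in the axis parenchyma, and there 1 probe set for other organisms was called higher and 4 lower.

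The difference between these organ differences, tested as an interaction, was called for 951 probe sets (3.35%), 649 positive (2.28%) and 302 negative (1.06%). A positive interaction means a more positive organ difference in the epidermis than in the parenchyma. By itself it does not mean a higher level in the cotyledon epidermis. Of the 886 named genes 45 (5.08%) and 18 (2.03%) were called, 7.11% in all. SGT2 headed the first group with an interaction of 7.84 ± 0.77 (adjusted p = 1.85e-07), since it was higher in the cotyledon than in the axis epidermis but lower in the cotyledon parenchyma (mean 1587) than in the axis parenchyma (40064). SOMT-9 (7.37 ± 0.98), AT133 (6.63 ± 0.78), CHR5, a chalcone reductase (6.83 ± 1.08), and GT4, a glycosyltransferase (6.07 ± 1.04), followed. In these 4 the axis parenchyma was bright, at means of 3490.0, 2695, 5670.2 and 6462, the cotyledon parenchyma was at 79.7, 11.8, 35.3 and 74.2, and the difference between the epidermal layers did not pass. CHR5 was above background on 1 of the 6 epidermis arrays, and its small epidermal difference of -0.22 turned sign without axis epidermis replicate 1 (0.79) and without adaxial replicate 2 (0.56).

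In the opposite direction GDH1 had the largest interaction of the 886 genes (-8.85 ± 0.55, adjusted p = 1.54e-10). It was followed by the glycinin GY2 (-5.32 ± 0.69), VPE2 (-4.77 ± 0.88), the glycinin GY5 (-4.74 ± 0.87) and the nitrite reductase gene NIR (-3.59 ± 0.95). NIR was dim, with mean signals of 113.7 in the axis epidermis and 53.65 and 12.9 in the abaxial and adaxial epidermis. In the parenchyma its means were 12.8 (axis) and 105.85 and 106.25 (abaxial and adaxial cotyledon). All of these means lay below background, so its interaction is a difference among dim values. GY2 and GY5 had parenchyma differences of 7.35 and 7.45 that exceeded their epidermal ones. GY1 was not called (interaction -0.94 ± 1.15, adjusted p = 0.763). Among the lists, the flavonoid pathway had 9 of 34 genes called with a positive interaction and none with a negative one. In the cotyledon parenchyma none of its genes was higher and 11 were lower, where 6.32% and 10.4% of named genes were. Of the seed maturation proteins 6 of 28 were called with a positive interaction and none with a negative one. Among them were PGMPM10 (4.15 ± 0.71), PM1 (2.99 ± 0.57) and PM32 (2.52 ± 0.62). PM32 was lower in the cotyledon in both layers, and more so in the parenchyma. The interaction of PM32 had an adjusted p of 0.0924 without axis epidermis replicate 1, and that of NIR of 0.0762 and 0.066 without axis epidermis replicates 1 and 2, and both also missed without 1 or more parenchyma arrays, up to 0.106 for PM32 and 0.129 for NIR.

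**Figure D5:**
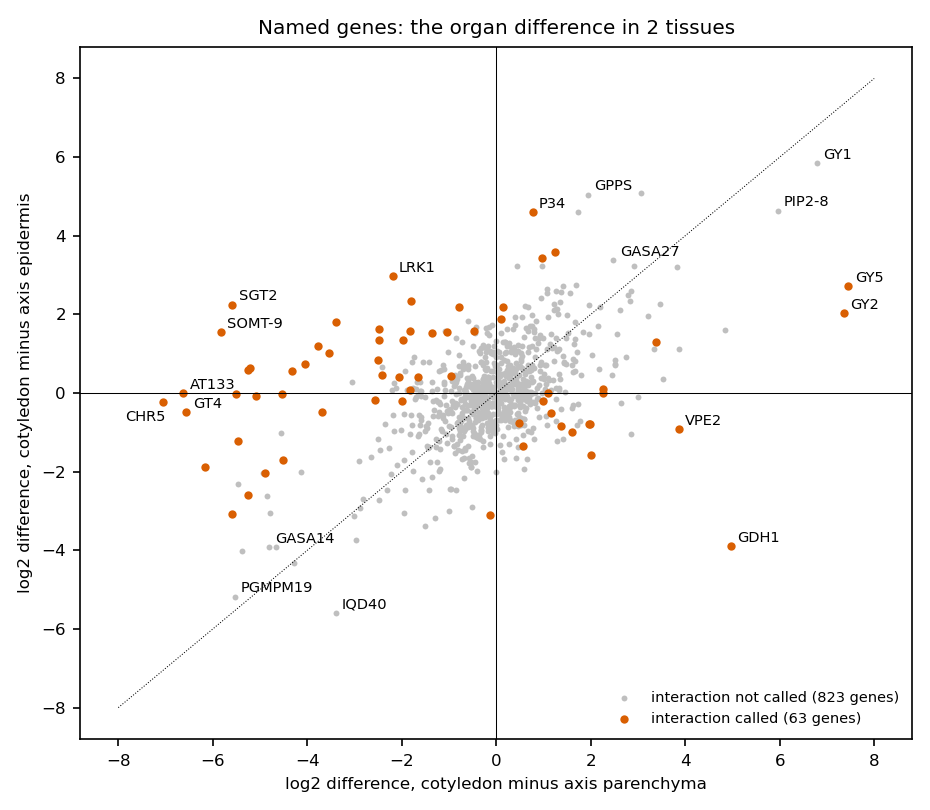
Log2 difference between cotyledon and axis in the epidermis (vertical axis) against that in the parenchyma (horizontal axis), 1 point per named gene, with the dotted line marking equal differences. The 63 genes whose differences were called unequal are orange, and GDH1 lies alone at the lower right, with 4.97 in the parenchyma and -3.88 in the epidermis.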

How the data were processed

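The authors deposited 1 intensity per probe set and array on a linear scale, made with GCOS 1.3 per the submitters' processing notes. The algorithm is not given in the sources used here. With the lowest and highest 2% of probe sets set aside, every array had a mean of about 500.1, so the deposited values had been scaled to a common mean. Values were tested as log2(signal + 16), computed here from the deposited intensities. A soybean probe set was tested if it exceeded the array's background (the 95th percentile of the probe sets for other organisms) on at least 2 of the 34 arrays. The number of arrays, 2 per group, limits the precision.

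All contrasts of soybean probe sets came from 1 limma fit of 17 groups (limma 3.58.1, R 4.3.3, eBayes with an intensity trend). In it the groups share 1 estimate of the spread. The probe sets for other organisms were fitted separately. The averaged cotyledon epidermis weights both sides equally. Adjusted p-values are Benjamini and Hochberg's over 28418 probe sets, and a call also needs a log2 difference of at least 1. A bound on a fold raises each signal of the dimmer side to the array's background where it lies below. An exact permutation test of 4 against 2 arrays cannot give a two-sided p below 0.0667 and was not used. The fit was tested on simulated data. Figures were drawn with matplotlib 3.10.9 and pandas 2.3.3 under Python 3.11.15.

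The platform annotation names 9047 soybean probe sets, 370 of them with several genes, which were left out. The 7443 tested with 1 gene cover 5524 genes, of which 886 have a name. Each gene was read by its probe set with the highest mean signal. The end of a probe set's ID (_s_at, _x_at or _a_at) marks one that can pick up transcripts of near-identical gene copies, as among the genes named do those of PSK3, PIP2-6, GSTU41, SGT2, GY2, GSTF5, PIP1-10, CHI4A, CHI1A, AT133, CHR5, FAD2-3, VPE2, LOX3, ELIP, GASA33, WRKY16, SUT1, PM3, SIP1-6, PRP1 and GASA14. No genome positions were used.

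Genes were named by rule: the 12 largest called differences in each direction with arrays that do not overlap, the 3 markers, the 5 largest interactions in each direction, up to 4 called members per list and direction, and the genes nearest to the markers. Exceptions are stated. The members, markers and lists were chosen with earlier results of these data known. A list for cutin and wax genes matched too few genes to report. Alternatives changed the arrays fitted, normalization, pseudocount, filter, intensity trend, array weights, replicate term, control covariate and single arrays. Subtracting the background, and counting calls only where the brighter side lies above it, were added after the data were seen.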

Additional observations from a re-analysis of the deposited data

Results flagged for a closer look

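For 24 of the genes named above, the difference between cotyledon and axis in the epidermis was not the same as in the parenchyma, by the interaction term of the limma fit. Values are the epidermal minus the parenchymal log2 difference. The largest positive ones were 7.84 for SGT2, 7.37 for SOMT-9, 6.83 for CHR5, 6.63 for AT133, 6.07 for GT4 and 5.17 for LRK1. PGMPM10 had 4.15, P34 3.82, CHI2-A 3.40, PM1 2.99, NRT1-3 2.87, CHS8 2.83, GSTU13 2.59, PM32 2.52, GT-2B 2.47, SHOOT2 2.33, SACPD-C 2.05 and PM31 2.03. Negative values were -8.85 for GDH1, -5.32 for GY2, -4.77 for VPE2, -4.74 for GY5, -3.59 for NIR and -2.98 for LBD23. The mean signals of NIR in these layers lay below background, as given above.

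GDH1 is the gene whose direction turned with a call in both layers, lower in the cotyledon epidermis by -3.88 and higher in the cotyledon parenchyma by 4.97 on the log2 scale. SGT2, PGMPM10, CHI2-A and LRK1 were called the other way round, higher in the cotyledon epidermis and lower in the cotyledon parenchyma. Of the 24 interactions 17 kept their call under each alternative tried. P34 missed the threshold in 11 of 23 alternatives, with an adjusted p of up to 0.177 without axis epidermis replicate 1. LBD23 missed in 15 of 22 (up to 0.263 without axis epidermis replicate 2), NIR in 10 of 22, SHOOT2 in 9 of 23 (up to 0.116 with array weights), PM31 in 8 of 23, PM32 in 6 of 23 and NRT1-3 in 3 of 23 (up to 0.116 with the arrays compared fitted alone).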

How the results depend on the processing

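Quantile normalization, scaling to the 75th percentile, a pseudocount of 1, no filter, a filter on the 6 arrays and no intensity trend gave 2675 to 2892 calls between the epidermal layers, against 2853. Fitted on the compared arrays alone, 1186 probe sets were called, 52 genes of the lists against 80, 860 for the abaxial and 516 for the adaxial side against the axis, and 571 between the sides. Array weights gave 1183, 43, 1383 and 860 in the same order, and 532 interactions against 951. With the hybridization controls as a covariate the counts were 1246, 39, 941 and 1587. These controls run nearly parallel to the groups, and the cause of the lower counts was not tested.

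Leaving out 1 array gave 2249 to 3038 calls, 1540 of the 2249 shared with the 2853 without axis epidermis replicate 1 and 1825 of the 3038 without replicate 2. The lists held 62 to 80 called genes, the abaxial side 1454 to 2814 calls, the adaxial side 1851 to 2667, the sides 544 to 947, the parenchyma 1249 (without axis parenchyma replicate 2) to 1830 and the interaction 591 to 1340. A group left with 1 array is assumed to vary like the others. Among 83 named calls, 47 were lost with the control covariate, 34 on the compared arrays alone, 33 with array weights, and 24 and 26 without axis epidermis replicates 1 and 2.

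Signs turned only for differences that were not called. AT133 was at -0.049 after quantile normalization and at -0.046 after scaling to the 75th percentile, and ranged from -0.63 to 0.64 when 1 array was left out. CHR5 ranged from -1.23 to 0.79 and was at 0.20 with the background subtracted, and GT4 was at 0.17 with the control covariate.

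Same-numbered arrays did not deviate together (r of 0.068, 0.013 and -0.0087 for the 3 pairs of groups), so the labels' numbers give no pairing. With the replicate number as a block 2964 probe sets were called, and no named call was lost under this block. Subtracting the background, added after the data were seen, gave 2997 calls. Counting only probe sets whose brighter side lay above background on every array, also added, gave 2290. Dim genes are limited by signal over background, since 670 of 1600 higher and 315 of 1253 lower probe sets had no array of the dimmer side above it.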
